A study of Sorghum bicolor with 16 samples.

Results

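The 60 genes described here had lower mean expression in waxy mutant endosperm than in wild type (WT) endosperm at each of the 4 ages sampled, which were 6, 11, 16 and 21 DPA (days post anthesis). They were chosen from a table of 34129 sorghum genes whose unit is FPKM, an expression level from sequenced fragments that is corrected for transcript length and library size. Of the 13518 genes with a mean of at least 2 FPKM over all libraries, 888 (6.57%) had a lower mean in the mutant at all 4 ages. The differences were taken as mutant minus WT on log2(mean FPKM + 1). Each gene was ranked by its smallest absolute difference of the 4, and the first 60 were kept after 4 genes had been set aside. These 4 were SbGBSSI (Sobic.010G022600), the mutated gene itself, Sobic.008G013000, Sobic.003G017500 and Sobic.001G501800. The study lists the genes other than SbGBSSI among those that carry background mutations of large effect and were lower in the mutant at every age. All 4 met the limits and would have ranked 3, 1, 5 and 8. The mutant minus WT values therefore chose the 60 genes and are given as a description with no test.

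The mutant was a line made with the mutagen EMS (ethyl methane sulfonate), homozygous for wxe, a stop-gained allele of SbGBSSI, and WT was its parent BTx623. The line also carries other EMS mutations, so an effect of wxe cannot be told apart from an effect of those. Both were grown in neighbouring rows of a field, and endosperm was dissected from frozen seeds of the middle part of the panicle. Each library pooled 3 panicles that had flowered together, and 2 libraries for each line and age made 16 libraries in 8 groups. In pooled endosperm, fewer cells of a type and less RNA in each cell cannot be told apart.

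The cereal endosperm fills with starch and with prolamin storage proteins, which in sorghum are the kafirins. GBSSI, the granule-bound starch synthase, makes the amylose fraction of starch, and its loss gives the waxy grain. Transcription factors of the bZIP family take part in the control of storage genes, and in maize the bZIP protein Opaque2 activates zein genes. Among the 60 genes, only Sobic.002G055000 carries a name in the sources used here, as a member of that bZIP family. The other 59 genes are given by ID, with no role.

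The libraries had the character of endosperm as far as 5 starch genes show. SbGBSSI, SbSBEIIb (a starch branching enzyme), SbSSIIIa and SbSSIIC (starch synthases) and SbAGPLS1 (a large subunit of the enzyme that makes ADP-glucose) were detected in every library, at 7.59 to 8807 FPKM. Besides the allele of SbGBSSI, the study reports a homozygous amino acid change in SbSBEIIb of the mutant. All 5 had lower means in the mutant at 6 DPA, by 0.58 to 1.27 on the log2 scale, and SbGBSSI alone among the 5 stayed lower at every age. The part of that early shift in the values below was not tested. Markers of other seed tissues could not be looked up and were not tested. Read counts were not used here, but low values showed the FPKM that 1 fragment is worth, and the relative depth from it ran from 0.399 to 1.02 of the first WT library at 6 DPA. Depth fell with age, so low genes at 16 and 21 DPA are the least precise. At 11 DPA it was 0.627 and 0.515 in the mutant, against 0.539 and 0.502 in WT. At 16 DPA it was 0.466 and 0.504 in the mutant, against 0.445 and 0.437 in WT. The lines overlapped in depth at 6 and 21 DPA.

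The differences were moderate for most of the 60 genes. Their median difference was -0.45 at 6 DPA, beside -0.03 over all genes with a mean of at least 2 FPKM. It was -0.55 at 11 DPA (all such genes 0.02), -0.36 at 16 DPA (-0.01) and -0.39 at 21 DPA (0.01). As a share of the WT mean, without the added 1, the median mutant level at 6 DPA was 67.2%. The later medians were 65.0% at 11 DPA and 74.7% at 16 DPA, and then 74.3% at 21 DPA. A difference of 0.58 or more below WT was reached by 21 of the 60 genes at 6 DPA, where 6.35% of the genes with at least 2 FPKM reached it. It was reached by 26 genes at 11 DPA (13% of those genes). Only 9 did so at 16 DPA (1.01%), and 18 at 21 DPA (3.59%). The same contrast chose the genes, so nothing is read from these counts. In 26 genes the difference was largest at 11 DPA and in 18 at 6 DPA, while 16 DPA held the smallest difference of 23 genes.

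**Figure D1:**
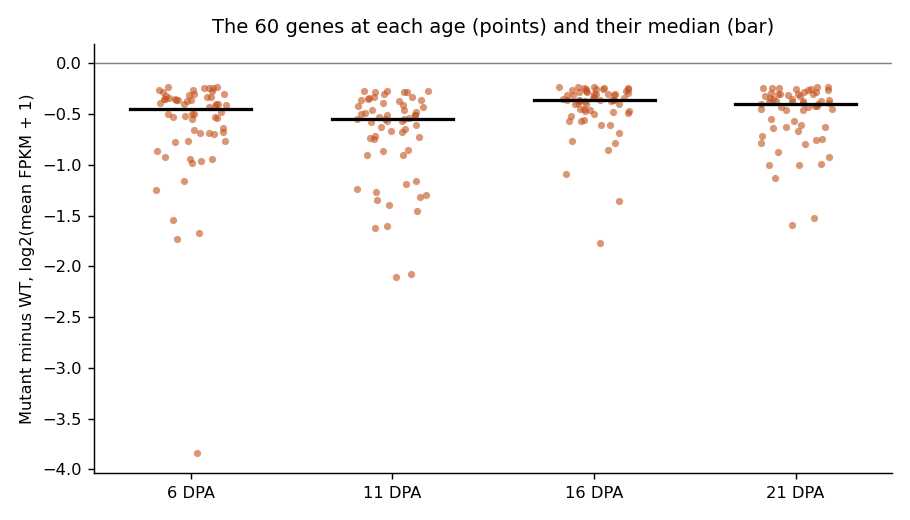
Difference between mutant and WT for each of the 60 genes (points) at 6, 11, 16 and 21 DPA, on log2(mean FPKM + 1), with the median as a black bar. Every point lies under 0 by the choice of the genes, the medians run from -0.55 to -0.36, and the lowest point is -3.84 at 6 DPA.

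Only 3 of the 60 genes stayed at least 0.58 below WT at all 4 ages, the first 3 by rank. Sobic.010G262300, on chromosome 10 like SbGBSSI by its ID, led the list. It had 2.12 and 2.39 FPKM in the mutant, against 5.22 and 5.67 FPKM in WT at 6 DPA, and 3.65 and 3.29 FPKM in the mutant, against 9.32 and 10.2 FPKM in WT at 11 DPA. The mutant libraries held 4.21 and 4.72 FPKM, against 17.4 and 17.97 FPKM in WT at 16 DPA, and 8.93 and 5.25 FPKM, against 23.3 and 21.2 FPKM in WT at 21 DPA. The lines did not overlap at any age, and the mutant mean lay at 41.4% of WT at 6 DPA and at 25.3% at 16 DPA, the lowest share of the 4 ages. No other of the 60 genes differed as much at 16 DPA, where its difference was -1.77.

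Sobic.004G157300 differed more with each age. Its mutant libraries had 14.8 and 19.7 FPKM, against 28.5 and 26.2 FPKM in WT at 6 DPA, and 8.71 and 6.96 FPKM, against 20.2 and 19.4 FPKM in WT at 11 DPA. At 16 DPA they had 9.81 and 7.05 FPKM, against 23.7 and 22.7 FPKM in WT, and at 21 DPA 19.3 and 13.7 FPKM, against 47.5 and 56.2 FPKM in WT. Both lines were lowest at 11 DPA. In terms of the WT mean the mutant lay at 63.1% when youngest, then at 39.6% and 36.4%, and at 31.8% when oldest.

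Sobic.006G054800 was a low gene that fell away at 11 DPA in both lines. There it had 0.312 and 0.248 FPKM in the mutant, against 1.28 and 1.52 FPKM in WT, or 20.03% of the WT mean. The added 1 holds its log2 difference at that age to -0.91. At 21 DPA it had 3.85 and 2.70 FPKM in the mutant, against 9.35 and 7.37 FPKM in WT, and the lines did not overlap at any age.

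Of the next genes by rank, Sobic.006G122400 had mutant means at 54.4% to 67.4% of WT. The lowest share was at 11 DPA, with 21.8 and 32.7 FPKM in the mutant, against 50.7 and 49.5 FPKM in WT. Its mutant libraries peaked at 60.2 and 60.01 FPKM, against 87.4 and 91.0 FPKM in WT, at 16 DPA. The gap of Sobic.009G215000 was widest early, with 4.26 and 3.66 FPKM in the mutant, against 12.0 and 19.0 FPKM in WT at 6 DPA, and 29.1 and 43.5 FPKM in the mutant, against 93.2 and 109.1 FPKM in WT at 11 DPA. It was narrower at 16 DPA, with 32.1 and 34.0 FPKM in the mutant, against 46.3 and 45.2 FPKM in WT. The mutant libraries of these 2 genes lay under both WT libraries at every age.

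Sobic.008G176600 was furthest apart at 11 DPA, with 152.7 and 158.0 FPKM in the mutant, against 336.8 and 454.2 FPKM in WT. At 16 DPA its lines overlapped, with 102.1 and 93.0 FPKM in the mutant, against 91.6 and 175.2 FPKM in WT, and without the second WT library of that age the difference turned to 0.09. Sobic.006G279800 overlapped at 3 of the 4 ages and had 0.848 FPKM in a mutant library at 11 DPA while the other is listed at 0. Its difference of -1.09 at 16 DPA came from 2.13 and 3.71 FPKM in the mutant, against 2.31 and 12.4 FPKM in WT, and was 0.25 without the second WT library. The rank of this gene thus rested on single libraries.

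Sobic.003G107900 had its largest gap at 6 DPA, with 5.08 and 3.93 FPKM in the mutant, against 10.4 and 12.2 FPKM in WT. At 21 DPA it still had 8.53 and 8.10 FPKM in the mutant, against 15.8 and 16.4 FPKM in WT, with no overlap at any age. For Sobic.007G036750 the gap was largest at 21 DPA, with 3.14 and 5.90 FPKM in the mutant, against 7.06 and 12.9 FPKM in WT. That gene overlapped at 16 DPA, where a mutant library reached 11.6 FPKM, against 12.7 and 11.1 FPKM in WT.

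**Figure D2:**
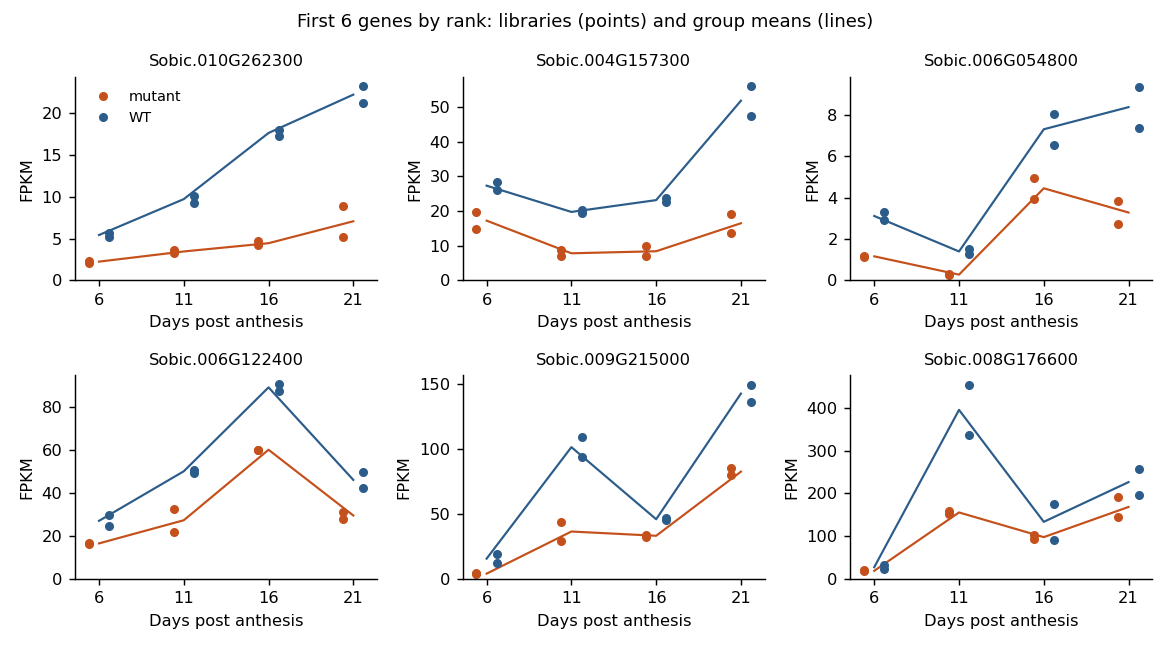
FPKM of the first 6 genes by rank in each library (points, mutant left of WT at each age) and group means (lines) against days post anthesis, with 2 libraries for each line and age. The mutant line runs under the WT line at all ages in each panel; the panel of Sobic.008G176600 shows the overlap at 16 DPA, with 102.1 and 93.0 FPKM in the mutant, against 91.6 and 175.2 FPKM in WT.

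The limit of the list fell where the genes were close together. Inside it, Sobic.007G195701 and Sobic.001G303825 had smallest differences of 0.233 and 0.232. Just outside, Sobic.003G054900 and Sobic.002G123900 had 0.230 each. Sobic.007G195701 was near even, with 7.98 and 7.63 FPKM in the mutant, against 9.07 and 9.63 FPKM in WT at 21 DPA. Sobic.001G303825 was uneven instead, with 0.456 and 0.930 FPKM in the mutant, against 4.08 and 2.85 FPKM in WT at 11 DPA, and 5.61 and 6.02 FPKM in the mutant, against 5.07 and 8.95 FPKM in WT at 16 DPA.

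The gap between the lines was steady over the ages in some genes and uneven in others. The range of the 4 differences had a median of 0.48 over the 60 genes, ran from 0.05 to 3.59, and was under 0.2 in 9 genes. The genes named in the rest of this paragraph were picked after their values were seen. In Sobic.004G193000 the mutant mean held between 71.1% and 76.5% of WT, with 12.3 and 11.4 FPKM in the mutant, against 14.3 and 16.8 FPKM in WT at 16 DPA, its peak. Sobic.004G158200 held between 77.2% and 84.1% of WT, with 33.7 and 31.5 FPKM in the mutant, against 35.8 and 41.8 FPKM in WT at 21 DPA. By contrast, Sobic.006G244500 had 4.43 and 4.83 FPKM in the mutant, against 15.5 and 18.3 FPKM in WT at 6 DPA, and 107.5 and 114.6 FPKM in the mutant, against 132.3 and 137.3 FPKM in WT at 11 DPA. The mutant mean was thus 27.4% of WT at the first age and 82.4% at the next. At 16 DPA the mutant mean of that gene was 77.6% of WT, and at 21 DPA 63.0%, so the gap was wider again. Sobic.003G106400 also had its widest gap at 6 DPA, with 10.4 and 14.0 FPKM in the mutant, against 36.5 and 38.2 FPKM in WT at 6 DPA, and the gap narrowed with each age, to 84.0% of WT at 21 DPA.

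At 6 DPA, 6 genes had a difference of 1 or more below WT (1.26% of genes with at least 2 FPKM). They were Sobic.002G211501, Sobic.009G215000, Sobic.006G244500, Sobic.003G106400, Sobic.003G331700 and Sobic.003G107900. At 11 DPA the count was 13 (5.39%), led by Sobic.009G066800 at -2.10 and Sobic.002G339000 at -2.07. At 16 DPA only Sobic.010G262300, Sobic.004G157300 and Sobic.006G279800 went that far (0.2%). At 21 DPA 5 genes did (0.732%): Sobic.004G157300, Sobic.010G262300, Sobic.006G054800, Sobic.001G147400 and Sobic.010G101400.

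Overlap between single libraries was counted as well. Both mutant libraries lay below both WT libraries for 55 of the 60 genes at 6 DPA, beside 35.6% of the genes with at least 2 FPKM. This held for 56 genes at 11 DPA (33.6%). It held for 50 genes at 16 DPA (28.7%) and again for 50 at 21 DPA (25.7%). At all 4 ages together, 40 of the 60 genes had no overlap in this direction, beside 1.15% of the genes with at least 2 FPKM, and 1.18% of these had none in the other direction. A further 13 genes were free of overlap at 3 ages, 5 at 2 ages, and 2, Sobic.006G279800 and Sobic.005G141400, at 1 age only. The choice by means favours such genes. In 10 of the 60 genes the mean difference turned to the other side at some age when 1 library was left out, and 5 of these 10 did so without the second WT library of 16 DPA: Sobic.008G176600, Sobic.006G279800, Sobic.005G141400, Sobic.002G274900 and Sobic.001G303825. The other 5 were Sobic.002G211501, Sobic.006G086100, Sobic.007G098100, Sobic.007G122500 and Sobic.009G066800.

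The levels of the 60 genes spanned from 2.12 to 10680 FPKM as means over all libraries. Their median was 12.5 FPKM, beside 10.3 FPKM for all genes with at least 2. There were 14 genes under 5 FPKM, 33 of at least 10 FPKM and 8 of at least 100 FPKM. The highest was Sobic.002G211501, with 4.78 and 1.21 FPKM in the mutant, against 27.6 and 85.1 FPKM in WT at 6 DPA. At 11 DPA it had 3848 and 3493 FPKM in the mutant, against 6640 and 5463 FPKM in WT. The lines overlapped later, with 18286 and 13183 FPKM in the mutant, against 19440 and 18015 FPKM in WT at 16 DPA, and 19947 and 17086 FPKM in the mutant, against 27780 and 17586 FPKM in WT at 21 DPA. At 6 and 11 DPA both mutant libraries lay below both WT libraries, as in 35.6% and 33.6% of the genes with at least 2 FPKM. The difference at 21 DPA was 0.07 without the first WT library of that age. The same values chose the gene, so nothing more is read from them.

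The next 2 genes by level had their largest differences at 11 DPA on the log2 scale with the added 1. As a share of the WT mean, the mutant mean of Sobic.003G331700 was lower at 6 DPA (38.6%) than at 11 DPA (40.3%). Sobic.003G331700 had 5.29 and 6.86 FPKM in the mutant, against 14.2 and 17.3 FPKM in WT at 6 DPA, and 97.3 and 80.1 FPKM in the mutant, against 239.6 and 200.1 FPKM in WT at 11 DPA. It had 1680 and 1646 FPKM in the mutant, against 2134 and 2169 FPKM in WT at 21 DPA, with no overlap at any age. Sobic.002G274900 had 111.2 and 124.6 FPKM in the mutant, against 358.9 and 360.1 FPKM in WT at 11 DPA, or 32.8% of the WT mean. It overlapped at 16 DPA, with 565.6 and 537.0 FPKM in the mutant, against 446.8 and 849.5 FPKM in WT, and the difference there was 0.30 without the second WT library.

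The bZIP gene Sobic.002G055000 ranked 41. It had 9.69 and 7.33 FPKM in the mutant, against 17.7 and 17.4 FPKM in WT at 6 DPA, and 43.97 and 39.1 FPKM in the mutant, against 58.2 and 63.9 FPKM in WT at 11 DPA. Its peak at 16 DPA had 122.0 and 127.0 FPKM in the mutant, against 149.9 and 147.9 FPKM in WT, and at 21 DPA it had 88.2 and 81.3 FPKM in the mutant, against 128.8 and 119.5 FPKM in WT. The mutant libraries lay under both WT libraries at every age, at 48.5% of the WT mean at 6 DPA and at 83.6% at 16 DPA. It was 1 of 8 genes that stayed among the first 60 under all 22 other ways of running the rule. These ways repeated the choice on the same libraries, so staying in the list is a description only. Among them was a mean of at least 5 FPKM, which the 14 genes under 5 FPKM could not meet.

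The course over the ages was tested as the change with age averaged over both lines, which does not use the difference between them. The rule drew on the same group means, so the test was not free of the choice of genes. The change was fitted with limma on log2(FPKM + 1) over 18349 genes. It was called at a Benjamini-Hochberg adjusted p below 0.05 with an absolute log2 change of at least 0.58. From 6 to 21 DPA, 40 of the 60 genes rose, 2 fell and 18 were not called. Of the genes with at least 2 FPKM, 30.1% rose and 28.4% fell, and of all genes tested 25.8% rose and 33% fell. The median change was 1.21 over the 60 genes and 0.06 over genes with at least 2 FPKM. The rule asked for a lower mutant mean at every age, so a gene at 0 FPKM in WT at any age could not be chosen. The added 1 also shrinks the difference of a gene that is low at any age. The choice thus depended on the level at each age, and the part of this in the counts was not tested. The p-values measure the spread between libraries from 1 field only.

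The first interval held the largest median change of the 60 genes, 0.61, beside 0.23 in the next and 0.27 in the last. From 6 to 11 DPA, 32 genes rose and 6 fell, beside 19.5% and 17.8% of the genes with at least 2 FPKM. From 11 to 16 DPA, 18 rose and 8 fell, beside 12.7% and 19%. In the last interval, 16 to 21 DPA, 17 rose and 3 fell, beside 9.51% and 9.34% of those genes, and 8.82% and 7.77% of all genes tested. Without the second mutant library of 21 DPA, 6 genes fell in that interval in place of 3.

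The largest rises were those of abundant genes. Sobic.002G211501 rose from 6 to 21 DPA by 10.57 on the log2 scale (SE 0.34, limma adjusted p = 2.57e-11). Sobic.002G370300 rose by 7.60 (SE 0.12, limma adjusted p = 1.17e-13). In that gene the mutant libraries had 1.27 and 1.61 FPKM, against 1.67 and 2.08 FPKM in WT at 6 DPA, and 40.5 and 49.2 FPKM, against 137.7 and 143.4 FPKM in WT at 11 DPA. At 21 DPA they had 339.8 and 486.9 FPKM, against 594.3 and 689.9 FPKM in WT, so the lines stayed apart while both rose. Sobic.003G331700 rose by 7.45 (SE 0.10, limma adjusted p = 4.13e-14). The bZIP gene Sobic.002G055000 rose by 2.97 (SE 0.08, limma adjusted p = 5.78e-12), and its later decline from 16 to 21 DPA, -0.41, did not reach the fold limit.

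Both genes that fell from 6 to 21 DPA had distinct courses. Sobic.005G141400 fell by 4.58 on the log2 scale (SE 0.32, limma adjusted p = 2.85e-08). Its mutant libraries had 121.8 and 76.7 FPKM, against 91.1 and 161.6 FPKM in WT at 6 DPA, and 4.52 and 1.63 FPKM, against 5.64 and 3.58 FPKM in WT at 21 DPA. The lines overlapped at both of these ages, and replicate libraries differed widely. Sobic.002G339000 fell by 1.86 (SE 0.14, limma adjusted p = 8.8e-08). It had 12.5 and 15.7 FPKM in the mutant, against 16.7 and 17.0 FPKM in WT at 6 DPA, and 2.89 and 2.57 FPKM in the mutant, against 13.8 and 15.5 FPKM in WT at 11 DPA. The mutant was thus low at 11 DPA while WT was still near its level of 6 DPA. Both lines were low at 16 DPA, with 0.628 and 1.11 FPKM in the mutant, against 1.62 and 1.22 FPKM in WT.

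The first genes by rank had mixed courses. Sobic.010G262300 rose by 1.56 from 6 to 21 DPA (SE 0.12, limma adjusted p = 7.8e-08), and Sobic.009G215000 rose by 3.61 (SE 0.14, limma adjusted p = 1.16e-10). For Sobic.004G157300 the change of 0.41 was under the fold limit, made up of -0.07 in the mutant and 0.90 in WT. It fell by 0.74 from 6 to 11 DPA and rose by 1.01 from 16 to 21 DPA. Sobic.007G036750 was not called in any interval, with a change of -0.24 from 6 to 21 DPA.

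**Figure D3:**
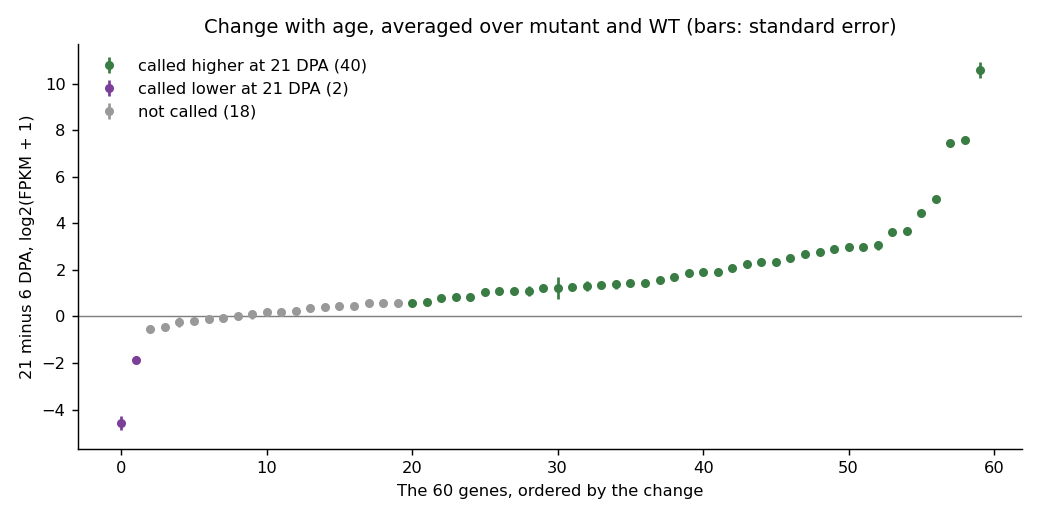
Log2 change from 6 to 21 DPA of each of the 60 genes, averaged over mutant and WT and ordered by size, with standard errors from limma as bars. Green points (40 genes) rose, purple points (2 genes) fell and grey points (18 genes) were not called; the changes run from -4.58 to 10.57.

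The differences from WT were also set out by course, for the 40 genes that rose with age and the 18 that were not called. The genes that rose had median differences of -0.53, -0.57, -0.36 and -0.39 from the youngest to the oldest endosperm. The genes not called had -0.39, -0.51, -0.33 and -0.36 in the same order. No test was made of these values, since the rule fixed them.

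The 2 lines mostly peaked at the same age. The highest mean fell at 6 DPA for 6 genes in the mutant and 4 genes in WT, and at 11 DPA for 6 genes in the mutant and 11 genes in WT. It fell at 16 DPA for 15 genes in the mutant and 14 genes in WT, and at 21 DPA for 33 genes in the mutant and 31 genes in WT. The age was the same in both lines for 47 of the 60 genes, while 63.9% of the genes with at least 2 FPKM shared it. Where the means of ages lie close together, a peak age can rest on 1 library.

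A subset of the genes was low at 16 DPA between higher values on either side, a pattern picked out after the values were seen. By the limma calls, 7 of the 60 genes fell from 11 to 16 DPA and rose from 16 to 21 DPA, beside 2.88% of the genes with at least 2 FPKM. The count depended on the definition. By group means, 13 of the 60 genes (21.7%) were lower at 16 DPA than at 11 and 21 DPA in both lines, beside 17.0% of the genes with at least 2 FPKM. By single libraries of both lines, 11 were, beside 8.77%. The 7 genes called were Sobic.001G219200, Sobic.002G339000, Sobic.003G378700, Sobic.008G176600, Sobic.009G066800, Sobic.009G215000 and Sobic.010G101400. Fitted within a line, the count was 3 in the mutant libraries alone and 9 in the WT libraries alone, and it was 5 after quantile normalization. Sobic.009G066800 showed the pattern most plainly in WT. It had 16.9 and 13.9 FPKM in the mutant, against 75.9 and 63.1 FPKM in WT at 11 DPA, and 9.11 and 7.59 FPKM in the mutant, against 9.94 and 12.6 FPKM in WT at 16 DPA. At 21 DPA it had 62.9 and 41.6 FPKM in the mutant, against 53.0 and 71.1 FPKM in WT, where the lines overlapped. Its changes were -1.67 from 11 to 16 DPA (SE 0.16, limma adjusted p = 3.31e-06) and 2.42 from 16 to 21 DPA (SE 0.16, limma adjusted p = 4.48e-07).

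Sobic.003G378700 had the same course at nearly the same depth in both lines. Its mutant libraries held 62.7 and 56.2 FPKM, against 76.2 and 73.5 FPKM in WT at 11 DPA, and 32.0 and 29.3 FPKM, against 39.8 and 37.0 FPKM in WT at 16 DPA. At 21 DPA they held 77.3 and 77.1 FPKM, against 117.2 and 90.6 FPKM in WT. The change from 11 to 16 DPA was -0.93 in the mutant and -0.94 in WT.

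**Figure D4:**
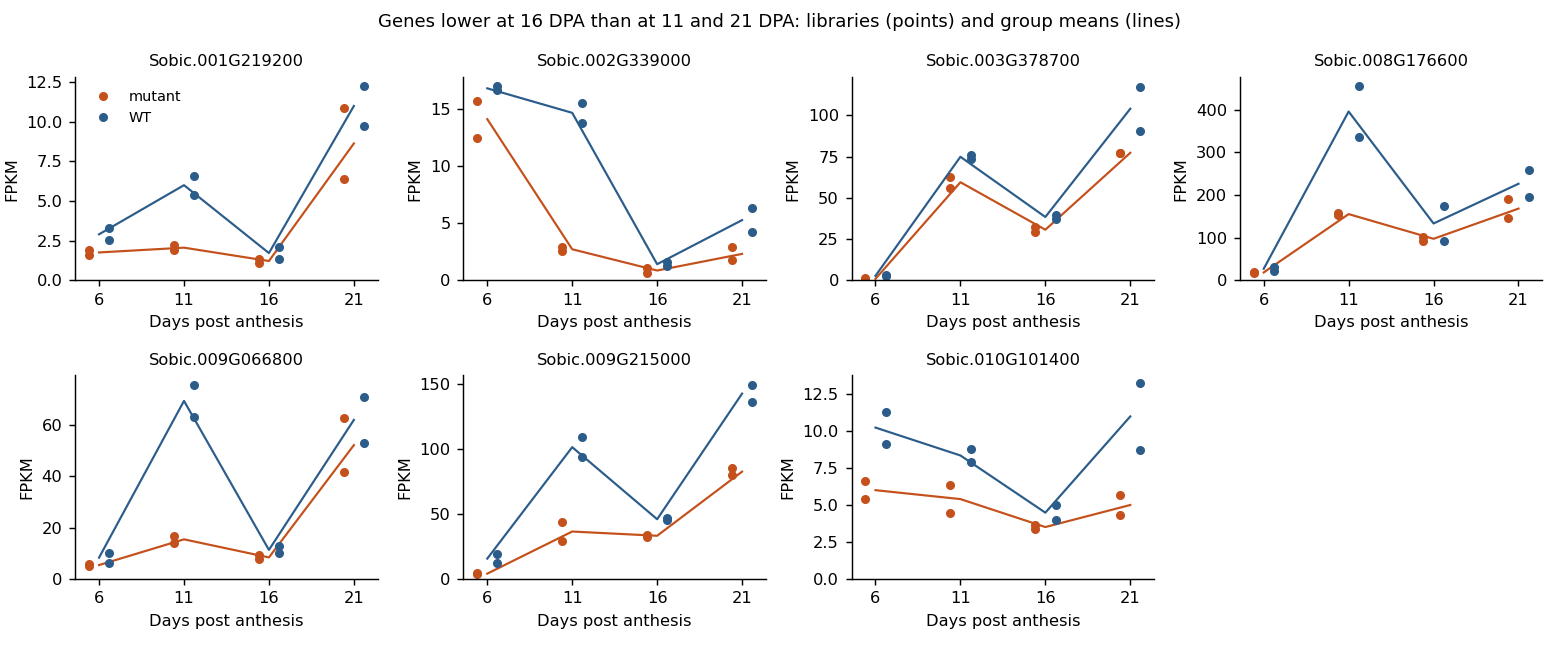
FPKM in each library (points, mutant left of WT at each age) and group means (lines) for the 7 genes called lower from 11 to 16 DPA and higher from 16 to 21 DPA. The mutant libraries of Sobic.009G215000 overlap between 11 DPA (29.1 and 43.5 FPKM) and 16 DPA (32.1 and 34.0 FPKM). For Sobic.009G066800 the gap is widest at 11 DPA, with 16.9 and 13.9 FPKM in the mutant, against 75.9 and 63.1 FPKM in WT.

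The same rule turned round gave 60 genes with higher means in the mutant at every age, and these served for a comparison side by side. Beside the 888 genes with lower means at all 4 ages, 909 of the genes with at least 2 FPKM (6.72%) had higher means at all 4. The smallest difference was 0.985 at rank 1 and 0.232 at rank 60 of the genes that were lower, beside 0.69 and 0.27 for the genes that were higher. The genes set aside were taken from the lower list only, where Sobic.008G013000 would have led with 1.10, so these ranks do not match exactly. From 6 to 21 DPA, 40 of the 60 genes that were lower in the mutant rose and 2 fell, whereas 3 of the 60 genes that were higher in it rose and 48 fell. The median change was 1.21 for the genes lower in the mutant and -1.56 for the genes higher in it. The difference between the lists was not tested, since the values of the same libraries formed both.

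The IDs place the 60 genes on all 10 chromosomes. Chromosome 2 held 12 genes (20%), chromosome 3 held 9 (15%), chromosome 6 held 8 (13.3%) and chromosome 1 held 6 (10%). Of the genes with at least 2 FPKM, 12.9% were on chromosome 2, 14.3% on chromosome 3, 8.77% on chromosome 6 and 18.7% on chromosome 1. No 2 of the 60 genes were within 10 genes of each other in the order of IDs. The closest were 12 genes apart, Sobic.001G510600 with Sobic.001G511900, and Sobic.004G157300 with Sobic.004G158200. Among the 60 genes higher in the mutant, 3 neighbouring pairs were within 10 genes. These 3 pairs formed a single run on chromosome 3, from Sobic.003G033000 to Sobic.003G033700. SbGBSSI lies on chromosome 10, which held 5 of the 60 genes (8.33%), beside 8.08% of the genes with at least 2 FPKM.

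**Figure D5:**
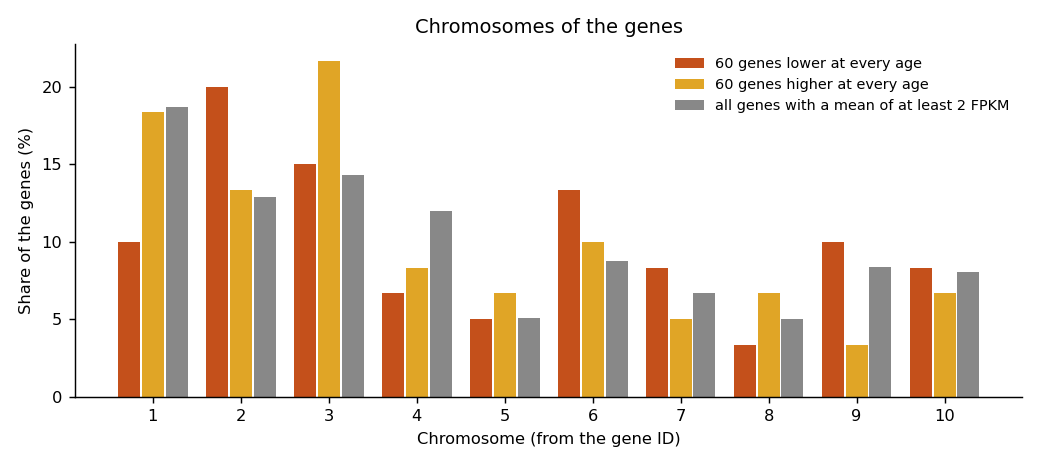
Share of genes on each of the 10 chromosomes, read from the gene ID, for the 60 genes lower in the mutant, the 60 genes higher in it and all 13518 genes with a mean of at least 2 FPKM. Chromosome 2 holds 20% of the genes lower in the mutant, beside 12.9% of all these genes, and chromosome 1 holds 10%, beside 18.7%.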

How the data were processed

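The authors deposited FPKM per gene and library, which they computed with Cufflinks after STAR alignment of paired reads to the sorghum version 3 genome. Their processing notes also name FastQC and Trimmomatic. Versions, annotation release and the treatment of reads with several alignments are not given in the sources used here. Whether close gene copies shared reads is therefore not known. No sequence or gene description is shown, because 0 entries of the reference table match the gene IDs. The planned promoter motifs, gene classes and other-tissue markers were not run.

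The rule was applied in Python 3.11.15 with pandas 2.3.3. Age changes were fitted with limma 3.58.1 in R 4.3.3 as 1 model of the 8 groups (variance trend, 8 residual degrees of freedom, two-sided) over genes with a mean above 1 FPKM in any group, and adjusted over all of them. The fit was tested on simulated data with independent normal noise around the mean of each gene. That simulation held no change of depth with age and no choice of genes, so it does not check the fit for either.

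The 60 genes, the lists and the tests were chosen with earlier results of these data known. Genes named are the first 10 by rank, those at the limit, the 3 highest, the 3 largest rises, the called falls and the gene that the study names. Others named were picked after their values were seen. Alternatives were another pseudocount, filter, scaling or ranking, a replicate block, no variance trend, each line alone and each library left out.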

Additional observations from a re-analysis of the deposited data

Results flagged for a closer look

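In Sobic.007G122500, from 6 to 11 DPA, both mutant libraries and both WT libraries moved in opposite directions. The change was -0.15 in the mutant and 0.63 in WT, which differ by -0.79 on the log2 scale. It had 0.746 and 0.910 FPKM in the mutant, against 2.77 and 4.35 FPKM in WT at 11 DPA.

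Sobic.009G125900 moved in opposite directions from 16 to 21 DPA. Its change was 0.07 in the mutant and -0.16 in WT, which differ by 0.23. At 21 DPA it had 11.4 and 11.4 FPKM in the mutant, against 12.7 and 14.5 FPKM in WT. The differences between the lines were not tested in either gene, and the rule that chose the genes used the same values.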

How the results depend on the processing

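The rule kept 44 to 56 of the 60 genes when 1 library was left out, and 28 when genes were ranked by the mean of the 4 differences. All 60 stayed lower at every age with median-ratio scaling or quantile normalization; the pseudocount cannot change that direction. Quantile normalization moved the median of genes with at least 2 FPKM to -0.11 at 6 DPA.

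Leaving out 1 library gave 38 to 42 rises and 2 to 3 falls among the 60 genes from 6 to 21 DPA (4673 to 4803 and 5911 to 6164 among all genes), 29 to 34 and 6 to 6 from 6 to 11 DPA (2839 to 2967 and 3793 to 4261), 17 to 19 and 6 to 9 from 11 to 16 DPA (1948 to 2043 and 3094 to 3334), and 15 to 20 and 2 to 6 from 16 to 21 DPA (1581 to 1709 and 1368 to 1525). The dip at 16 DPA was called in 5 to 7 of the 60 genes. In the mutant libraries alone, 4 of the 60 genes fell from 6 to 21 DPA, 4 fell from 11 to 16 DPA (8 over both lines), and 3 had the dip. Over all genes, a filter at 5 FPKM gave 3875 falls in place of 6056 from 6 to 21 DPA and 2531 in place of 3995 from 6 to 11 DPA, where fewer genes were tested. A pseudocount of 0.1 gave 2395 falls in place of 1425 from 16 to 21 DPA, and the cause was not tested.

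The 6 to 21 DPA change of Sobic.004G157300 was -0.066 in the mutant alone, against 0.41 over both lines. That of Sobic.007G036750 was 0.0043 in WT alone, against -0.24. The rise of Sobic.006G279800, called with an adjusted p of 0.028 by limma, was not called under 9 alternatives, and that of Sobic.003G107900 under 3.

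Replicate numbers were not used to pair the libraries. Deviations of same-numbered libraries correlated between groups from -0.33 to 0.42 (median 0.11). With 2 libraries a group, these values cannot settle whether some groups shared a batch by replicate number. With a replicate block, 40 of the 60 genes rose and 2 fell from 6 to 21 DPA, as without it.

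Age and depth moved together, and 2 libraries a group limit every value of a low gene.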
